A study of Homo sapiens with 18 samples.

Results

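The pregnancy-specific glycoprotein (PSG) genes were taken by symbol from deposited expression tables of 2 human cell lines. The 10 genes, PSG1 to PSG9 and PSG11, were all present among 31585 genes listed for LX-2, a human hepatic stellate cell line. They were also all present among 32555 genes listed for SW480 cells carrying the LV5 labels, SW480 being a human colorectal cancer line. Another table, of 15543 genes in parental and liver-selected SW480 cells, listed 3 of them, PSG1, PSG4 and PSG5. The genes were chosen because their levels differed in these same comparisons, so their values are given as a description, with no p-value for any PSG gene.

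The study sequenced polyA-selected RNA from 18 libraries in 6 groups of 3. EV-XP-NID1-LX-2 cells were LX-2 cells given vesicles with NID1, a basement membrane protein, for 48 hours, and EV-XP-LX-2 cells were their vesicle control. LV5-NID1 cells were NID1-overexpressing SW480 cells kept in GW4869, which blocks vesicle release, for 72 hours, and LV5 cells were their control. SW480-LM3 cells came from SW480 cells put through 3 rounds of injection into the spleen to select cells that metastasize, and SW480-P were the parental cells. The labels do not say what XP stands for or whether LV5 cells received GW4869, so NID1 and GW4869 cannot be told apart in LV5-NID1. They do not say that replicates were separate cultures either, so p-values measure only the spread between these libraries.

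PSG proteins are secreted glycoproteins of the carcinoembryonic antigen (CEA) branch of the immunoglobulin superfamily, and the syncytiotrophoblast of the placenta releases them into the maternal blood. PSG1 is the best studied: it binds integrins, heparan sulfate chains and galectin-1, and it can activate latent TGF-beta. The genes are close copies of one another in a single cluster. Their promoters lack a TATA box, and the factor KLF6 was first described through its binding to the core promoter of PSG5.

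Promoter windows for 3 of the 10 genes, PSG3, PSG5 and PSG4, were held in the RefSeq table used here (build GRCh38.p14). They are shown because they include the most abundant member, PSG4, and PSG5, the member with the largest fitted difference between LV5-NID1 and LV5. Their likeness also shows how alike the copies are. Each line runs 5′ to 3′ over the 250 bases before the annotated start, on the minus strand of chromosome 19. The windows lie at chr19:42740482-42740731 for PSG3, at chr19:43186537-43186786 for PSG5 and at chr19:43205639-43205888 for PSG4. Capitals mark the CACCC box CCCACCC or the GC box CCCGCCC, the kinds of motif bound by KLF and SP proteins.
PSG3: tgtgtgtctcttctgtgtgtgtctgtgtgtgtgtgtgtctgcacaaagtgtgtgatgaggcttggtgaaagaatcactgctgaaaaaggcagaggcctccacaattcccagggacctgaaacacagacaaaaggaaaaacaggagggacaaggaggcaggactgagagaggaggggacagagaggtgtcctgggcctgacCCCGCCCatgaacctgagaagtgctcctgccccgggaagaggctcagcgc
PSG5: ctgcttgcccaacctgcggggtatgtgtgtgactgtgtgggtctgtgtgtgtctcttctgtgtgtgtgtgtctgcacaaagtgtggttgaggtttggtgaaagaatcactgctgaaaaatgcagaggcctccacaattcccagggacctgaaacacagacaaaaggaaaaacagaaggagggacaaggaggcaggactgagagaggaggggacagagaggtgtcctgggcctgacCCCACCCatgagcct
PSG4: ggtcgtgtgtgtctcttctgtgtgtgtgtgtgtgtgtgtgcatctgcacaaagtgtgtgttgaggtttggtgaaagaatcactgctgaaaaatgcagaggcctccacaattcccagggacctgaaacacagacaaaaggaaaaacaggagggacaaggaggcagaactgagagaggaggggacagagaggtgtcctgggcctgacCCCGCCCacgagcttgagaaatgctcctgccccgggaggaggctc
Both strands were searched. The CACCC box lay 15 bases before the annotated start of PSG5, and a GC box lay 50 bases before that of PSG3 and 45 bases before that of PSG4. In all 3 windows the capitals follow the same letters, gggcctgac. Over 35116 promoter windows of the same length, 18.2% held the CACCC box, 31.5% the GC box and 10.7% the letters TATAAA, which none of the 3 PSG windows held. Over the bases that could be aligned, PSG3 and PSG5 were 97.0% identical (203 bases), PSG5 and PSG4 96.5% (201 bases) and PSG3 and PSG4 95.1% (245 bases). A match of letters is not a measured binding site.

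The likeness of the copies bears on every value that follows. In GENCODE v29 the genes lie on 1 strand of chromosome 19 in the order PSG3, PSG8, PSG1, PSG6, PSG7, PSG11, PSG2, PSG5, PSG4 and PSG9. Over the 45 pairs, 1 transcript per gene was 87.4% to 95.6% identical to another over the bases that could be aligned (median 93.7%). The aligned part ran from 751 to 1868 bases. By this measure the closest pair was PSG1 and PSG8. Of all stretches of 50 bases in a PSG transcript, 59.8% (PSG8) to 81.2% (PSG7) occurred in no other annotated gene. For stretches of 100 bases the share was 83.3% (PSG1) to 97.9% (PSG9). No source used here gives the read length, aligner settings or counting tool, so reads may have been split between copies, and the order of neighbouring genes by level is uncertain for that reason. Strand use in counting is not stated either, and the antisense gene AC004784.1 overlaps PSG11, PSG2 and PSG5.

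The tables gave these series-wide checks. NID1 mRNA averaged 20.8 ± 2.44 TPM (a level per transcript length, scaled to the same total in every library) in EV-XP-NID1-LX-2 and 25.4 ± 0.50 TPM in EV-XP-LX-2 (SD, n = 3 each; limma adjusted p = 0.0372, but not called when replicate 1 of EV-XP-NID1-LX-2 or any EV-XP-LX-2 library was left out). It averaged 360 ± 16.6 TPM in LV5-NID1 against 0.02 ± 0.02 TPM in LV5. Of 10 stellate markers, 9 were listed in LX-2, with vimentin (VIM) at 1341 ± 127 TPM in EV-XP-NID1-LX-2 and 1887 ± 80.8 TPM in EV-XP-LX-2, LRAT at or near 0, DCN under 1 TPM on average and DES not listed. In the LV5 table the epithelial markers KRT8 and KRT18 were abundant, EPCAM averaged 9.05 ± 0.604 TPM in LV5-NID1 and 5.03 ± 0.750 TPM in LV5, and the intestinal markers CDX2, VIL1, CDH17 and LGALS4 were under 1 TPM on average. The TPM tables carry no read counts, so the depth of their libraries is unknown. The 6 SW480-LM3 and SW480-P libraries held 15504205 to 18965163 reads, recovered from the deposited values.

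In LX-2 cells all 10 PSG genes were lower after NID1 vesicles. The summed PSG level was 68.8, 69.52 and 69.97 TPM in EV-XP-NID1-LX-2 and 126.48, 117.43 and 117.33 TPM in EV-XP-LX-2. The groups did not overlap, and the mean of 69.4 ± 0.590 TPM was 57.7% of the control mean of 120.4 ± 5.25 TPM (SD, n = 3 each). In a bulk sample fewer cells with the RNA and less RNA per cell cannot be told apart. On log2(TPM + 1), limma with Benjamini-Hochberg adjustment called all 10 lower at an adjusted p under 0.05, where 24.6% of the 15802 genes tested were called lower and 42.3% in either direction. The median fitted change was −0.73 for the 10 genes and −0.05 for all genes tested. These values chose the genes, so the count is a description only.

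PSG4 made up most of the PSG RNA in LX-2 cells. It stood at 49.46, 49.89 and 50.61 TPM in EV-XP-NID1-LX-2 libraries and at 77.86, 74.83 and 75.79 TPM in EV-XP-LX-2 libraries. The replicates lay close together and the groups far apart, with the vesicle-treated mean at 65.6% of control (log2 change −0.60, SE 0.0436). PSG4 supplied 72.0% ± 0.298 of the summed PSG level in EV-XP-NID1-LX-2 and 63.3% ± 1.56 in EV-XP-LX-2, the sum of the other genes being lower by more. Without PSG4 the sum was 19.4 ± 0.162 TPM in EV-XP-NID1-LX-2 and 44.3 ± 3.82 TPM in EV-XP-LX-2, or 43.9% of control.

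**Figure D1:**
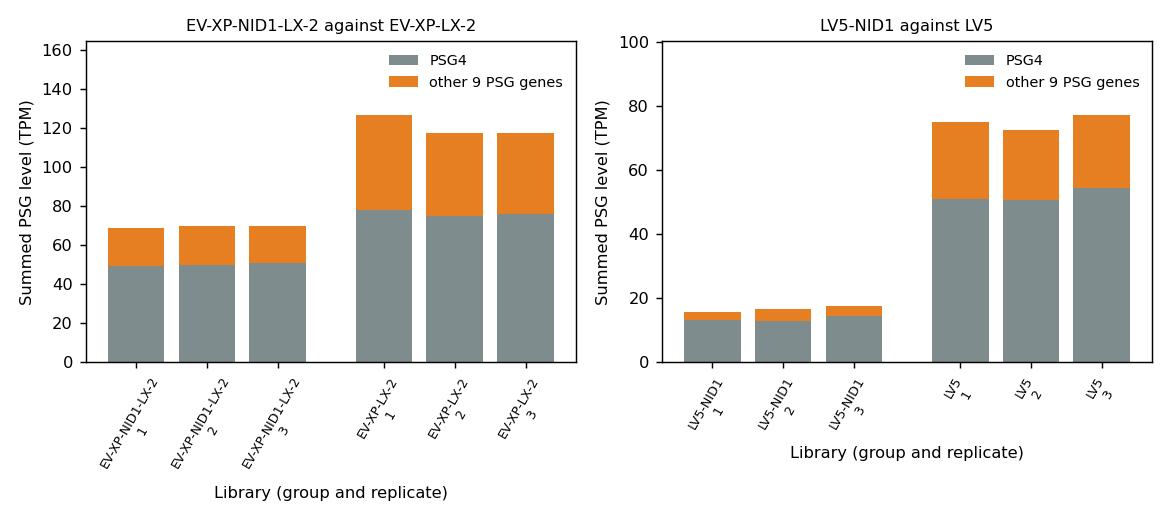
Summed PSG level (TPM, linear axis from 0) in each library, left panel LX-2 cells and right panel SW480 cells, split into PSG4 (grey) and the other PSG genes (orange). The 3 EV-XP-NID1-LX-2 bars reach 68.8 to 69.97 TPM against 117.33 to 126.48 TPM in EV-XP-LX-2, and the 3 LV5-NID1 bars 15.55 to 17.46 TPM against 72.75 to 77.19 TPM in LV5.

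PSG1 had the largest difference of the family in LX-2 cells. It stood at 2.14, 2.06 and 1.63 TPM in EV-XP-NID1-LX-2 and at 10.03, 7.96 and 6.57 TPM in EV-XP-LX-2. The highest treated library was well under the lowest control library, and the treated mean was 23.7% of control (log2 change −1.63, SE 0.156, the 25th lowest of 15802 genes). PSG5, whose promoter is printed above with its CACCC box, stood at 1.3, 1.42 and 1.3 TPM in EV-XP-NID1-LX-2 and at 3.84, 4.83 and 3.69 TPM in EV-XP-LX-2. Its treated mean was 32.5% of control (log2 change −1.12, SE 0.123). These were the only 2 members lower by 1 or more on the log2 scale in LX-2, where 1.22% of all genes tested were called lower by that much.

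PSG9, which like PSG1 binds the latency peptide of TGF-beta, was the second most abundant member in EV-XP-NID1-LX-2. It stood at 4.72, 4.55 and 4.66 TPM there and at 10.99, 10.15 and 8.96 TPM in EV-XP-LX-2. The treated libraries fell within a narrow range at 46.3% of the control mean (log2 change −0.96, SE 0.0942). PSG7 stood at 1.48, 1.79 and 2.01 TPM in EV-XP-NID1-LX-2 and at 4.16, 3.9 and 5.07 TPM in EV-XP-LX-2, a mean of 40.2% of control (log2 change −0.96, SE 0.132). PSG3 stood at 2.34, 1.83 and 2.57 TPM in EV-XP-NID1-LX-2 and at 5.08, 4.01 and 4.43 TPM in EV-XP-LX-2, a mean of 49.9% of control (log2 change −0.76, SE 0.132). In each of these genes every treated library lay under every control library.

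PSG6 and PSG11 are, with PSG1, the members reported to make human monocytes release anti-inflammatory cytokines. PSG6 was the lowest member, at 0.82, 0.78 and 0.76 TPM in EV-XP-NID1-LX-2 and 2.26, 1.72 and 1.69 TPM in EV-XP-LX-2 (log2 change −0.69, SE 0.132). It passed the filter of 1 TPM in 3 libraries only through EV-XP-LX-2, so it had to be lower. PSG11 stood at 2.12, 3.02 and 2.63 TPM in EV-XP-NID1-LX-2 and at 4.04, 3.64 and 3.78 TPM in EV-XP-LX-2, and its mean of 67.8% of control was the nearest of the 10 to it (log2 change −0.43, SE 0.124). The groups did not overlap, but PSG11 was no longer called with no filter on low values, under quantile normalization, or when any library but EV-XP-NID1-LX-2 replicate 2 was left out.

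The remaining members, PSG2 and PSG8, lay between these. PSG2 stood at 2.57, 2.53 and 2.19 TPM in EV-XP-NID1-LX-2 and at 4.52, 3.56 and 4.96 TPM in EV-XP-LX-2 (log2 change −0.63, SE 0.13). PSG8, the closest copy of PSG1, stood at 1.85, 1.65 and 1.61 TPM in EV-XP-NID1-LX-2 and at 3.7, 2.83 and 2.39 TPM in EV-XP-LX-2 (log2 change −0.54, SE 0.146). PSG8 thus averaged 57.3% of control, against 23.7% for PSG1. PSG8 was no longer called when replicate 3 of EV-XP-NID1-LX-2 or replicate 1 of EV-XP-LX-2 was left out, or when low genes were kept. In all, 10 of 10 members had groups that did not overlap, with the treated group lower, as did 32.5% of the genes tested.

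By level, PSG4 was highest in both LX-2 groups and PSG6 lowest. In EV-XP-NID1-LX-2, PSG9 came next and was separated from the rest. From PSG11 to PSG8 each gene overlapped the next in the order PSG11, PSG2, PSG3, PSG1, PSG7 and PSG8, and PSG5 lay below them. In EV-XP-LX-2, PSG9 and PSG1 overlapped each other above PSG3, PSG7, PSG2, PSG5, PSG11 and PSG8, each of which overlapped the next. PSG1 thus ranked 6 by mean in EV-XP-NID1-LX-2 and 3 in EV-XP-LX-2.

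**Figure D2:**
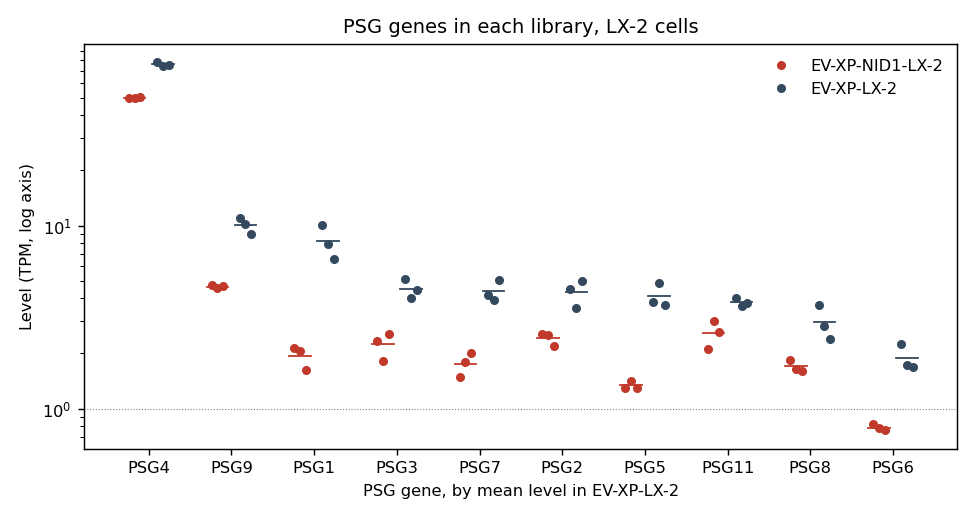
Level of each PSG gene (TPM, log axis) in the 3 EV-XP-NID1-LX-2 libraries (red, left) and the 3 EV-XP-LX-2 libraries (dark, right). Short lines are means and the dotted line marks 1 TPM. Every red point of a gene lies under every dark point of it, with the widest gap at PSG1.

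In SW480 cells the PSG genes were again lower in the cells with NID1. The summed PSG level was 15.55, 16.65 and 17.46 TPM in LV5-NID1 and 75.12, 72.75 and 77.19 TPM in LV5. The groups lay far apart, and the mean of 16.6 ± 0.959 TPM was 22.1% of the LV5 mean of 75.0 ± 2.22 TPM (SD, n = 3 each). The LX-2 and LV5 tables share no library and were scaled separately. Of the 10 members, 7 passed the filter and limma called all 7 lower, where 9.32% of the 15508 genes tested were called lower and 16.6% in either direction. Of these 7, 6 passed only through LV5 and so had to be lower, and the count is a description only. All 7 were lower by 1 or more on the log2 scale, as called for 1.28% of genes tested.

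PSG4, the 1 member that passed through both groups, stood at 13.01, 12.77 and 14.27 TPM in LV5-NID1 and at 50.97, 50.81 and 54.54 TPM in LV5. Each LV5-NID1 library held 24.5% to 27.4% of the LV5 mean (log2 change −1.89, SE 0.0663, the 29th lowest of 15508 genes). PSG4 supplied 80.7% ± 3.60 of the summed PSG level in LV5-NID1 and 69.5% ± 1.44 in LV5. Without it the sum was 3.20 ± 0.670 TPM in LV5-NID1 and 22.9 ± 1.13 TPM in LV5, or 14.0% of LV5.

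PSG5 was the second most abundant member in LV5 and had the largest fitted difference on log2(TPM + 1). It stood at 0.41, 1.18 and 0.68 TPM in LV5-NID1 and at 10.76, 9.0 and 9.96 TPM in LV5. The LV5-NID1 mean was 7.64% of LV5, and the change on the log2 scale of −2.65 (SE 0.173) was the 5th lowest of all genes tested. PSG1 stood at 0.54, 0.5 and 0.57 TPM in LV5-NID1 and at 2.76, 2.73 and 2.3 TPM in LV5 (log2 change −1.22, SE 0.101). PSG9 stood at 0.36, 0.53 and 0.7 TPM in LV5-NID1 and at 2.65, 2.53 and 2.53 TPM in LV5 (log2 change −1.23, SE 0.116). PSG1 and PSG9 thus averaged 20.7% and 20.6% of LV5.

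PSG2, PSG3 and PSG6 were low in LV5 and close to 0 in LV5-NID1. PSG2 stood at 0.13, 0.16 and 0.05 TPM in LV5-NID1 and at 1.8, 1.4 and 1.49 TPM in LV5. PSG6 stood at 0.02, 0.15 and 0.13 TPM in LV5-NID1 and at 1.55, 1.31 and 1.28 TPM in LV5. Both averaged 7.25% of LV5. PSG3 stood at 0.17, 0.45 and 0.49 TPM in LV5-NID1 and at 1.82, 2.31 and 2.0 TPM in LV5, a mean of 18.1% of LV5. The fitted changes of these 3 genes, −1.11 to −1.20 on log2(TPM + 1), understate such ratios because of the added 1.

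PSG7, PSG8 and PSG11 did not pass the filter in the LV5 table. PSG7 stood at 0.35, 0.4 and 0.21 TPM in LV5-NID1 and at 0.74, 0.89 and 0.86 TPM in LV5. PSG8 stood at 0.22, 0.3 and 0.18 TPM in LV5-NID1 and at 0.83, 0.78 and 0.62 TPM in LV5. PSG11 stood at 0.34, 0.21 and 0.18 TPM in LV5-NID1 and at 1.24, 0.99 and 1.61 TPM in LV5. All 3 were lower in every LV5-NID1 library, at means of 38.6%, 31.4% and 19.01% of LV5. In all, the groups of 10 of 10 members did not overlap, with LV5-NID1 lower, as for 21.6% of the genes tested. PSG7, PSG8 and PSG11 are not among those genes tested.

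By level, PSG4 was again highest in both groups. In LV5, PSG5 came next, then PSG1 and PSG9, which overlapped, then PSG3, then PSG2, PSG6 and PSG11, each overlapping the next, and last PSG7 and PSG8. In LV5-NID1, the genes after PSG4 overlapped from each to the next in the order PSG5, PSG1, PSG9, PSG3, PSG7, PSG11 and PSG8, and PSG2 and PSG6 lay below.

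**Figure D3:**
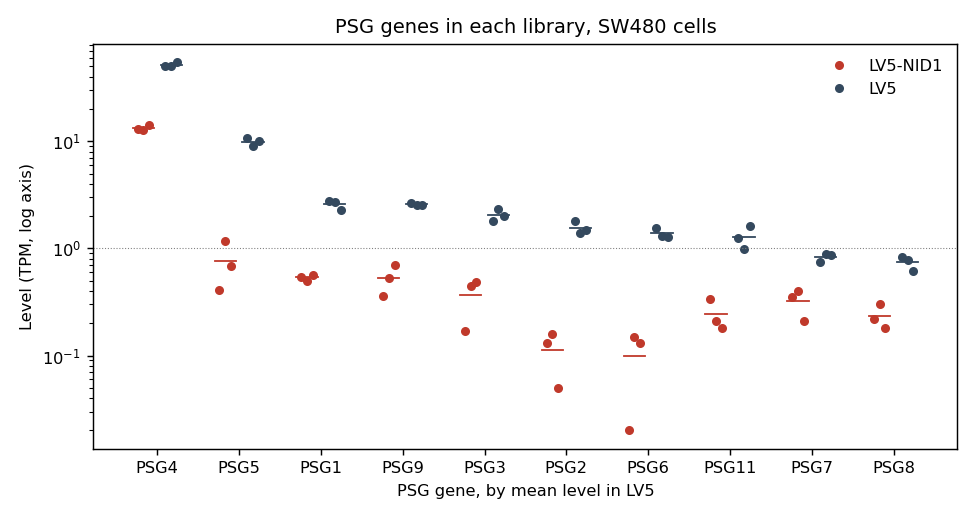
Level of each PSG gene (TPM, log axis) in the 3 LV5-NID1 libraries (red, left) and the 3 LV5 libraries (dark, right). Short lines are means and the dotted line marks 1 TPM. PSG4 alone lies above 1 TPM in all 6 libraries, and every red point of a gene lies under every dark point of it.

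The members differed in how far they stood from control, and not in the same order in the 2 cell lines. As a share of the control mean, the 10 genes ranged from 23.7% (PSG1) to 67.8% (PSG11) in LX-2 cells, with a median of 48.1%. In SW480 cells they ranged from 7.25% (PSG2 and PSG6) to 38.6% (PSG7), with a median of 19.8%. PSG7 stood at 40.2% in EV-XP-NID1-LX-2 and 38.6% in LV5-NID1, and PSG1 at 23.7% in EV-XP-NID1-LX-2 and 20.7% in LV5-NID1. PSG2, by contrast, stood at 55.9% in EV-XP-NID1-LX-2 and 7.25% in LV5-NID1. The difference between the cell lines was not tested, since the tables were scaled separately and the treatments differ.

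**Figure D4:**
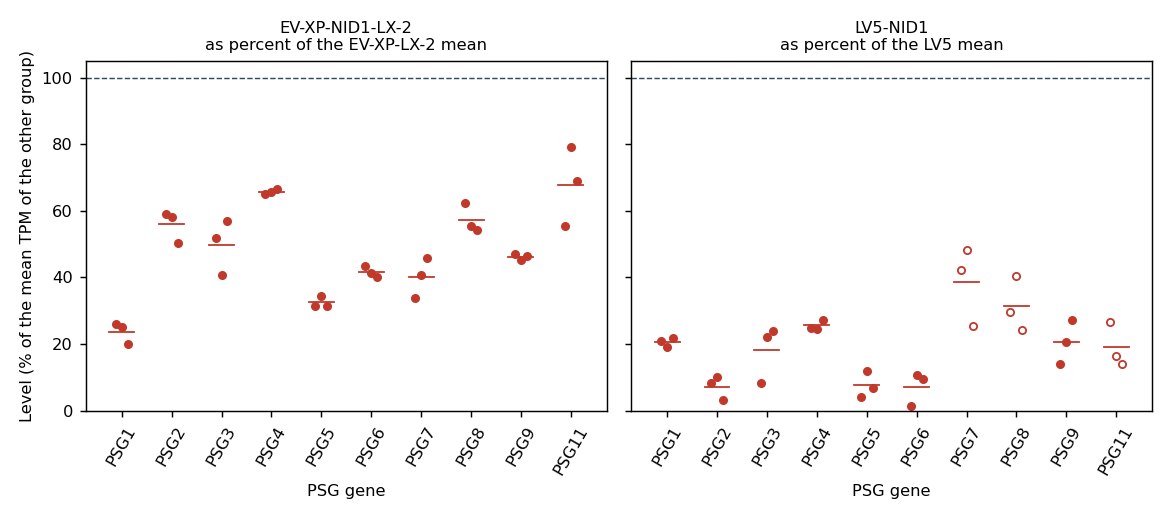
Level of each PSG gene in the 3 EV-XP-NID1-LX-2 libraries as a percent of the EV-XP-LX-2 mean (left panel) and in the 3 LV5-NID1 libraries as a percent of the LV5 mean (right panel), linear axis. Points are libraries, short lines means, and open points genes that did not pass the filter. PSG1 lies at 19.9% to 26.1% in the left panel and 19.3% to 22.0% in the right, and the means of all 10 genes are lower in the right panel.

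In liver-selected SW480-LM3 cells no PSG read was found for the 3 genes listed. These values are a signal per library, reads scaled by 1 factor per library and not per length, so the genes are not compared with each other by it. PSG4 had 0 reads in all 3 SW480-LM3 libraries and 92, 115 and 83 reads in SW480-P libraries. The signal in SW480-P averaged 6.37 ± 0.453 (SD, n = 3), and against the limit that 0 reads allow, 3 reads over the 3 libraries, PSG4 was at least 112-fold lower in SW480-LM3. PSG1 had 0 reads in SW480-LM3 and 24, 21 and 15 in SW480-P, at least 23.3-fold lower. The row named PSG1 also carries the symbol PSG8 in another column of the file, so which copy it counts is uncertain. PSG5 had 0 reads in SW480-LM3 and 19, 8 and 27 in SW480-P, at least 21.8-fold lower, and with replicate 2 the lowest. The groups of all 3 did not overlap, with SW480-LM3 lower, as for 43.8% of genes tested. PSG5 is not among those genes tested. PSG4 and PSG1 passed the filter, through SW480-P alone, and were called lower, where 43.9% of the 14527 genes tested were called lower and 87.8% were called in either direction. These limits cover counting error only.

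In LX-2 cells several other genes expressed by the placenta fell. Of 44 placental trophoblast genes, 33 were listed and 13 tested: 7 fell, 2 rose and 4 were not called, with a median of −0.33 beside −0.05 for all genes tested. Over all genes tested 24.6% were called lower and 17.8% higher. CGB8, a beta chain gene of chorionic gonadotropin, averaged 8.26 ± 0.544 TPM in EV-XP-NID1-LX-2 and 22.7 ± 1.75 TPM in EV-XP-LX-2 (log2 change −1.35, limma adjusted p = 0.000174). Its copy CGB5 averaged 1.05 ± 0.542 TPM in EV-XP-NID1-LX-2 and 3.15 ± 0.336 TPM in EV-XP-LX-2 and was called lower. CGB5 reached 1 TPM in every library of EV-XP-LX-2 but not of EV-XP-NID1-LX-2. It thus passed the filter only through EV-XP-LX-2, and its call is a description only. CGB7, another copy among the 7 that fell, averaged 0.773 ± 0.0643 TPM in EV-XP-NID1-LX-2 and 2.41 ± 0.514 TPM in EV-XP-LX-2. It passed the filter only through EV-XP-LX-2, so it had to be lower. These copies, like the PSG genes, can share reads. KRT7, a keratin of trophoblast and other simple epithelia, averaged 13.3 ± 0.968 TPM in EV-XP-NID1-LX-2 and 23.6 ± 1.89 TPM in EV-XP-LX-2 (log2 change −0.78, limma adjusted p = 0.000699). TFAP2A, a transcription factor of trophoblast and neural crest, averaged 20.3 ± 2.81 TPM in EV-XP-NID1-LX-2 and 33.3 ± 2.03 TPM in EV-XP-LX-2 (log2 change −0.69, limma adjusted p = 0.00227). The protease inhibitor TFPI2 rose, at 25.2 ± 1.62 TPM in EV-XP-NID1-LX-2 and 20.4 ± 0.563 TPM in EV-XP-LX-2 (log2 change 0.29, limma adjusted p = 0.0113). TEAD4, the other gene that rose, was not called when replicate 1 or 3 of EV-XP-NID1-LX-2 or replicate 1 or 2 of EV-XP-LX-2 was left out (limma adjusted p = 0.0605 to 0.0804).

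Several defining trophoblast markers were at or near 0 in LX-2. Of 15 trophoblast markers 10 were listed and 4 tested, and 3 of them, CGB5, CGB8 and KRT7, fell, where 24.6% of all genes were called lower. CGB5 passed the filter only through EV-XP-LX-2, so the count is a description only. The summed level of the 10 listed markers was 26.7 to 29.1 TPM in EV-XP-NID1-LX-2 and 50.6 to 57.6 TPM in EV-XP-LX-2. CGA, the alpha chain of chorionic gonadotropin, GCM1, the regulator of syncytiotrophoblast fusion, and TFAP2C, a trophoblast transcription factor, all averaged under 0.5 TPM in both LX-2 groups. Of 7 stellate markers tested 3 fell, VIM, the receptor PDGFRB and the collagen COL1A1, against the same 24.6%, with a summed level over the list of 1383 to 1644 TPM in EV-XP-NID1-LX-2 and 2047 to 2220 TPM in EV-XP-LX-2. PDGFRB averaged 6.15 ± 0.04 TPM in EV-XP-NID1-LX-2 and 10.8 ± 0.737 TPM in EV-XP-LX-2 (limma adjusted p = 0.000766). COL1A1 averaged 161 ± 20.9 TPM in EV-XP-NID1-LX-2 and 203 ± 4.16 TPM in EV-XP-LX-2 (limma adjusted p = 0.0212), and was not called when replicate 1 or 3 of EV-XP-LX-2 was left out (limma adjusted p = 0.0609 to 0.0624). Of 2 epithelial markers tested in LX-2, KRT8 fell, at 35.4 ± 3.26 TPM in EV-XP-NID1-LX-2 and 54.8 ± 2.34 TPM in EV-XP-LX-2 (limma adjusted p = 0.00109). The part of these marker lists in the PSG values was not tested.

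Factors reported to act on PSG promoters were called in both directions in LX-2 cells. Of 7 tested, 1 fell, 2 rose and 4 were not called, against 24.6% and 17.8% of all genes. KLF6, the most abundant, averaged 95.8 ± 7.85 TPM in EV-XP-NID1-LX-2 and 87.2 ± 2.06 TPM in EV-XP-LX-2 (limma adjusted p = 0.147). It was called higher under median-ratio scaling (limma adjusted p = 0.0120). The same held when replicate 2 of EV-XP-NID1-LX-2 was left out (limma adjusted p = 0.0102). GABPA, an ETS factor, averaged 19.6 ± 0.816 TPM in EV-XP-NID1-LX-2 and 23.2 ± 0.577 TPM in EV-XP-LX-2 (log2 change −0.24, limma adjusted p = 0.0173). It was not called under quantile normalization, nor when replicate 2 or 3 of EV-XP-LX-2 was left out (limma adjusted p = 0.0600 to 0.0706). Its partner GABPB1 averaged 51.3 ± 4.26 TPM in EV-XP-NID1-LX-2 and 43.9 ± 0.729 TPM in EV-XP-LX-2, and the nuclear receptor RXRA 10.5 ± 0.925 TPM in EV-XP-NID1-LX-2 and 8.30 ± 0.232 TPM in EV-XP-LX-2. Both were called higher (limma adjusted p = 0.0355 and 0.0268), and both dropped out of the calls when any 1 EV-XP-LX-2 library was left out. The same held without replicate 3 of EV-XP-NID1-LX-2 for both, without its replicate 2 for GABPB1 and without its replicate 1 for RXRA.

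Of the reported binding partners of PSG proteins, 12 were tested in LX-2 cells, 6 fell and 3 rose, where 24.6% of all genes were called lower and 17.8% higher. ITGA5 and ITGB1, the chains of the fibronectin-binding integrin, both fell. ITGA5 averaged 109.8 ± 11.6 TPM in EV-XP-NID1-LX-2 and 164.9 ± 6.34 TPM in EV-XP-LX-2 (log2 change −0.59, limma adjusted p = 0.00150). ITGB1 averaged 528 ± 26.0 TPM in EV-XP-NID1-LX-2 and 671 ± 8.96 TPM in EV-XP-LX-2 (log2 change −0.35, limma adjusted p = 0.00170). CD9, a tetraspanin known in the mouse as a PSG receptor, averaged 173 ± 11.2 TPM in EV-XP-NID1-LX-2 and 230 ± 9.59 TPM in EV-XP-LX-2 (log2 change −0.41, limma adjusted p = 0.00203). The heparan sulfate carrier SDC4 rose, at 157 ± 12.3 TPM in EV-XP-NID1-LX-2 and 126 ± 6.22 TPM in EV-XP-LX-2 (log2 change 0.32, limma adjusted p = 0.00957). SDC2 and LGALS1, the gene of galectin-1, were also called higher (limma adjusted p = 0.0165 and 0.0232). SDC2 was not called when replicate 1 of EV-XP-LX-2 was left out, nor LGALS1 when replicate 2 or 3 of that group was.

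In LV5-NID1 cells genes of placental alkaline phosphatase and chorionic gonadotropin fell. Of 44 placental genes, 34 were listed and 16 tested: 6 fell, 1 rose and 9 were not called, where 9.32% of all genes were called lower and 7.27% higher. The list median was −0.29, beside 0.01 for all genes tested. ALPP, the placental alkaline phosphatase, averaged 45.6 ± 13.8 TPM in LV5-NID1 and 261 ± 12.0 TPM in LV5 (log2 change −2.54, limma adjusted p = 0.00248). Its close copy ALPG averaged 0.15 ± 0.0625 TPM in LV5-NID1 and 2.097 ± 0.205 TPM in LV5. ALPG, which is among the 6 that fell, passed the filter only through LV5, so it had to be lower. CGA averaged 45.5 ± 1.90 TPM in LV5-NID1 and 90.3 ± 5.39 TPM in LV5 (log2 change −0.97, limma adjusted p = 0.00112). KRT7, the most abundant gene of the list, averaged 582 ± 40.3 TPM in LV5-NID1 and 557 ± 28.9 TPM in LV5 and was not called (limma adjusted p = 0.548). HSD17B1, a placental estrogen-forming enzyme, was called higher at 3.74 ± 0.146 TPM in LV5-NID1 and 2.16 ± 0.455 TPM in LV5 (limma adjusted p = 0.0297), but not when any library but LV5-NID1 replicate 3 was left out.

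The summed level of the 11 trophoblast markers listed was 605 to 683 TPM in LV5-NID1 and 625 to 693 TPM in LV5, most of it KRT7. Of 3 tested 2, CGA and TFAP2C, fell, where 9.32% of all genes were called lower, and KRT7 was not called. TFAP2C averaged 8.63 ± 0.106 TPM in LV5-NID1 and 10.6 ± 0.279 TPM in LV5 (limma adjusted p = 0.0349). It was not called when any library but LV5-NID1 replicate 3 was left out. CGB3, CGB8, CSH2, GCM1 and LGALS14 were under 0.1 TPM on average in both groups. Of 4 epithelial markers tested 3, KRT8, KRT18 and KRT19, fell and 1, EPCAM, rose, where 9.32% of all genes were called lower and 7.27% higher. KRT19 averaged 0.103 ± 0.0351 TPM in LV5-NID1 and 2.92 ± 0.697 TPM in LV5. It passed the filter only through LV5, so it had to be lower. EPCAM was not called when LV5 replicate 2 was left out (limma adjusted p = 0.0528). The sum over the list was 927 to 988 TPM in LV5-NID1 and 1631 to 1672 TPM in LV5, and the part of either marker list in the PSG values was not tested. KLF4, reported as an activator of the PSG5 promoter, averaged 51.6 ± 2.24 TPM in LV5-NID1 and 84.9 ± 3.61 TPM in LV5 (log2 change −0.71, limma adjusted p = 0.00202). Of the 7 regulators tested 1 fell, KLF4, against 9.32% of all genes. GABPA was the 1 called higher (limma adjusted p = 0.0327), but not when replicate 2 of LV5-NID1 or any 1 LV5 library was left out.

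Of 10 binding partners tested in the LV5 table, 4 fell and none was called higher, where 9.32% of all genes were called lower and 7.27% higher. SDC2 averaged 16.7 ± 1.01 TPM in LV5-NID1 and 29.7 ± 2.77 TPM in LV5 (log2 change −0.79, limma adjusted p = 0.00475). SDC4 averaged 46.4 ± 1.86 TPM in LV5-NID1 and 61.4 ± 0.624 TPM in LV5 (log2 change −0.40, limma adjusted p = 0.00710). ITGB1 averaged 321 ± 15.4 TPM in LV5-NID1 and 408 ± 10.3 TPM in LV5 (limma adjusted p = 0.0114), and was no longer called without LV5-NID1 replicate 2 or LV5 replicate 1 or 2. LGALS1 averaged 654 ± 211 TPM in LV5-NID1 and 923 ± 18.1 TPM in LV5 (limma adjusted p = 0.173, and 0.00952 without LV5-NID1 replicate 3).

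The CEACAM genes, the nearest relatives of the PSG genes, were few in these cells. CEACAM19 was the 1 of 12 tested in LX-2, at 4.74 ± 0.485 TPM in EV-XP-NID1-LX-2 and 3.28 ± 0.191 TPM in EV-XP-LX-2 (limma adjusted p = 0.0159). That direction is opposite to that of the PSG genes, and CEACAM19 was not called when replicate 1 of EV-XP-NID1-LX-2 or replicate 2 or 3 of EV-XP-LX-2 was left out (limma adjusted p = 0.0516 to 0.0523). CEACAM7 averaged 0.353 ± 0.0115 TPM in LV5-NID1 and 1.92 ± 0.142 TPM in LV5. It passed the filter only through LV5, so it had to be lower. CEACAM19 was not called in LV5-NID1 against LV5 (limma adjusted p = 0.480). In SW480-LM3, where PSG4, PSG1 and PSG5 had 0 reads, 4 of 5 CEACAM genes tested rose, against 43.9% of all genes. Of these, CEACAM1, CEACAM5 and CEACAM6 passed the filter only through SW480-LM3, so they had to be higher. CEACAM21, which fell, passed only through SW480-P and had to be lower. The count is a description only. CEACAM1 had a signal of 25.4 ± 1.54 in SW480-LM3 and 0.838 ± 0.0694 in SW480-P (log2 change 3.84). CEACAM5 averaged 3.42 ± 0.191 in SW480-LM3 and was listed at 0 in SW480-P.

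The placental genes of SW480-P were mostly lower in SW480-LM3, as the PSG genes were. Of 15 tested 11 fell and 3 rose, with a median of −2.66 beside 0.00 for all genes, of which 43.9% were called lower. Most of those that fell, CGA among them, passed the filter only through SW480-P and so had to be lower. The count and the median are a description only. CGA had a signal of 0.0193 ± 0.0335 in SW480-LM3 and 39.7 ± 2.78 in SW480-P. ALPP had 7.77 ± 1.60 in SW480-LM3 and 122.8 ± 10.2 in SW480-P, and KRT7 had 31.5 ± 1.36 in SW480-LM3 and 434 ± 18.9 in SW480-P. KLF4 had a signal of 13.8 ± 1.34 in SW480-LM3 and 54.3 ± 0.911 in SW480-P, whereas KLF6 had 53.9 ± 0.926 in SW480-LM3 and 18.1 ± 1.82 in SW480-P. Of 7 epithelial markers tested 6 rose, where 43.9% of all genes were called higher. CDH17, which rose, passed the filter only through SW480-LM3 and had to be higher. The marker sums were 13051 to 13756 in SW480-LM3 and 3520 to 3788 in SW480-P. The part of these markers in the PSG values was not tested.

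Of the genes next to the cluster on chromosome 19, some were called in each table. The 10 nearest tested genes on each side, a set chosen after the PSG values were known, are a description. In LX-2 cells 1 of the 20, AC006486.1, was called higher and 3, PAFAH1B3, XRCC1 and IRGQ, lower, by 0.28 to 0.32 on the log2 scale, where 17.8% of all genes were called higher and 24.6% lower, with side medians of −0.05 and −0.08. AC006486.1 passed the filter only through EV-XP-NID1-LX-2, so it had to be higher. PAFAH1B3 was not called without EV-XP-LX-2 replicate 1, nor IRGQ without any 1 EV-XP-LX-2 library. In LV5-NID1 cells 2 of the 20, LYPD3 and PLAUR, were called lower and none higher, against 9.32% and 7.27% of all genes, with side medians of −0.20 and −0.29. PLAUR was not called without any 1 library but LV5-NID1 replicate 3, nor LYPD3 without LV5 replicate 2. LYPD3, a surface protein of epithelial and placental cells, stood at 11.2 ± 3.18 TPM in LV5-NID1 and 30.1 ± 1.89 TPM in LV5. In SW480-LM3, 5 of the 20 nearest tested genes were called lower and 13 higher, against 43.9% of all genes in each direction. Some of these, CEACAM1 among them, passed the filter through only SW480-LM3 or only SW480-P, so their direction was fixed.

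**Figure D5:**
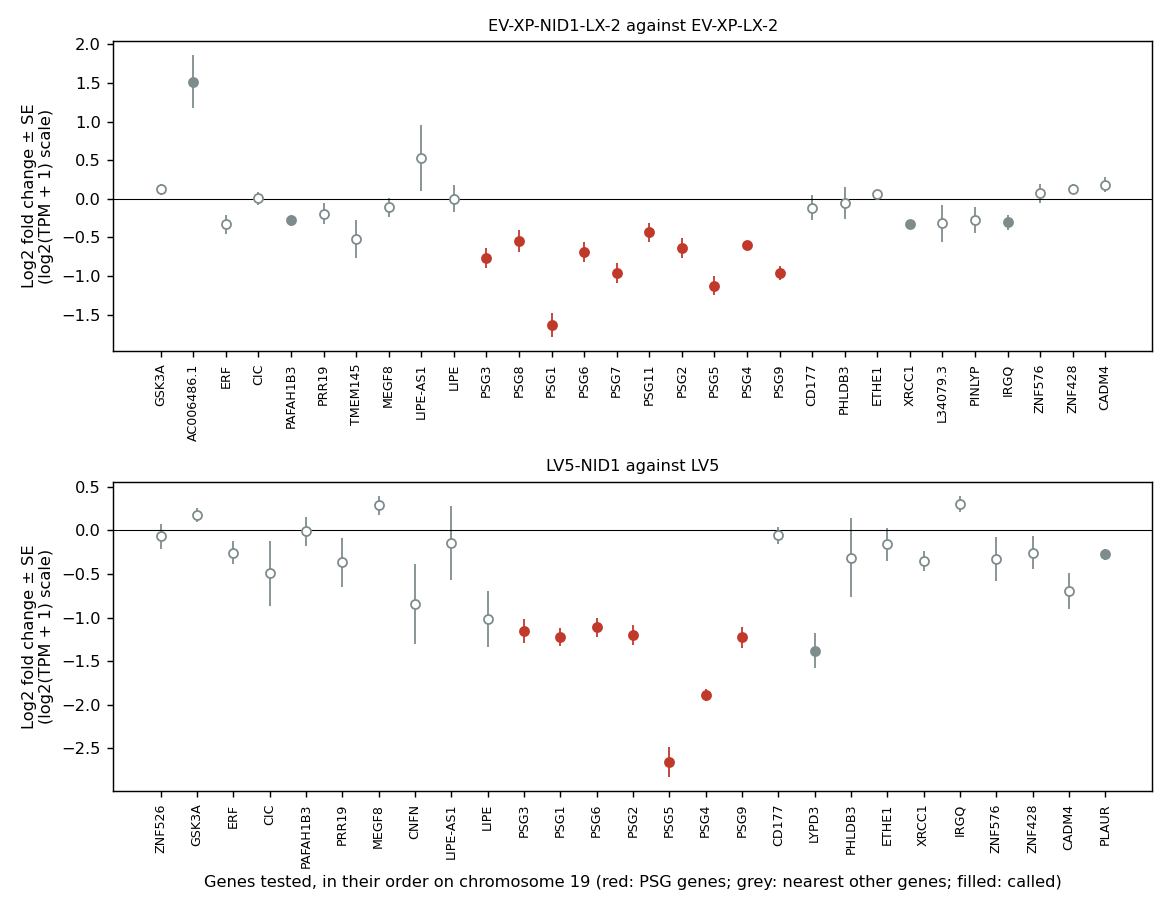
Log2 fold change (log2(TPM + 1) scale, bars are SE) of the tested PSG genes (red) and the 10 nearest tested genes on each side (grey) in their order on chromosome 19, upper panel EV-XP-NID1-LX-2 against EV-XP-LX-2, lower panel LV5-NID1 against LV5. Filled points were called. All red points lie under 0 and are filled, while most grey points are open.

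The genes most like the summed PSG level were found by Pearson's r of log2(TPM + 1) over the 6 libraries of a table, as a description. In LX-2 they were EBP, a sterol isomerase, with r = 0.999, then NFE2L3, LANCL1, TMEM256 and ATP2A3. In the LV5 table they were AKR1C3, a steroid-reducing enzyme, CLU (clusterin), TRIML2, MAMDC2 and C1S, a complement protease. Candidates passed the filter and averaged at least 5 TPM in the higher group, and clone names were left out. Likeness of this order was common: 136 of 11090 genes in LX-2 and 120 of 10292 in the LV5 table had r above 0.99. The groups lay far apart in summed PSG level, so a high r can restate the group difference alone. EBP averaged 31.5 ± 0.206 TPM in EV-XP-NID1-LX-2 and 50.3 ± 2.15 TPM in EV-XP-LX-2. AKR1C3 averaged 61.5 ± 2.71 TPM in LV5-NID1 and 145 ± 2.48 TPM in LV5.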

How the data were processed

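Total RNA was polyA-selected and sequenced, per the labels' protocols, in 18 libraries in 6 groups of 3. The authors deposited TPM for the LX-2 and LV5 tables and a signal, gene counts divided by 1 factor per library, for SW480-LM3 and SW480-P. The submitters' processing notes name HISAT2 2.1.0 and Bowtie2 2.3.5 without a role; no source used here names the build, annotation or counter. Of the signal values, 100% were whole reads, within 0.05 of a read.

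Each table was fitted alone with limma 3.58.1 (R 4.3.3), with a variance trend, on log2(value + 1), keeping genes that reached 1 in 3 or more libraries. Calls used a Benjamini-Hochberg adjusted p under 0.05. The pseudocount of 1 understates changes of low genes. No replicate block was used in the main fit. A fold against 0 reads used 3 reads over the group.

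The PSG genes, gene lists and tests were chosen with earlier results of these data known. Named genes were all PSG genes, up to 3 called in each direction per list with the smallest adjusted p, and the most abundant of each list; CGB7, AC004784.1, CEACAMP10 and the genes beside the cluster were added after their values were seen. Not every gene this rule allows is given, in SW480-LM3 above all. Alternatives were the pseudocount, filters, scaling, variance trend, a log2 fold change threshold, a replicate block and leaving out each library. Added after seeing the data were edgeR 4.0.16 and DESeq2 1.42.0 on the recovered reads, the counts for the gene lists, and median-ratio scaling of the summed level. Promoters were aligned with Biopython 1.88.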

Additional observations from a re-analysis of the deposited data

How the results depend on the processing

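No fitted direction reversed in the PSG genes, the named list genes or NID1 under any alternative run. In LX-2, 10 PSG genes were called, against 3 with a mean of at least 5 TPM (3 tested) and 2 with a log2 fold change of at least 1; that threshold left 280 of 6687 genes and 2 of 22 list genes. Without 1 library the counts were 8 to 10 PSG genes, 4762 to 7132 genes and 15 to 23 list genes, and the summed PSG level was 56.9% to 59.1% of control; without PSG4 it was 43.9%. In LV5-NID1 against LV5, 7 PSG genes were called, 2 with a mean of at least 5 TPM (2 tested), and 7 without any 1 library. The 2572 genes called became 1532 with no low filter and 220 with a log2 fold change of at least 1, which left 3 of 14 list genes. They became 713, 714 and 1045 without LV5 replicate 1, 2 or 3, 1675 and 750 without LV5-NID1 replicate 1 or 2, and 3325 without LV5-NID1 replicate 3. List genes numbered 7 to 19, with 7 without LV5 replicate 1 or LV5-NID1 replicate 2, 8 without LV5 replicate 2 and 9 without LV5 replicate 3. The sum was 21.5% to 22.7% of LV5, and without PSG4 14.0%. Of genes called there, 43.8% were higher, against 54.7% under quantile normalization. In SW480-LM3, 12749 genes were called, 6592 with a log2 fold change of at least 1, 12485 to 12563 without 1 library, 13107 with edgeR and 12749 with DESeq2; PSG genes called stayed at 2 and list genes at 35 to 37 without 1 library, the sum stayed at 0, and no PSG gene reached a mean of 5. The causes of these changes were not tested, apart from fewer genes or libraries entering a fit.

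No pairing by replicate number was seen: deviations of same-numbered libraries correlated at −0.05 to 0.06. These values cannot show how the libraries were handled. With the replicate block, 890 genes and 8 list genes were called in the LV5 table, and 7 PSG genes; in LX-2, 9 PSG genes were called, without PSG11. The block also ended the calls of RXRA, LGALS1 and IRGQ in LX-2. In the LV5 table it ended those of HSD17B1, GABPA, ITGB1, EPCAM, TFAP2C and PLAUR. With no low filter PSG8, PSG11, NID1, CEACAM19, GABPB1, RXRA, LGALS1, SDC2, COL1A1, IRGQ and AC004784.1 were not called in LX-2. In the LV5 table HSD17B1, GABPA, TFAP2C and PLAUR were not called with no low filter. With no variance trend NID1, GABPB1 and LGALS1 were not called in LX-2 (limma adjusted p = 0.0511, 0.0585 and 0.0503). Quantile normalization also ended the calls of IRGQ in LX-2 and of TFAP2C and PLAUR in the LV5 table.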

Other observations

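Other genes listed inside the PSG cluster were low. AC004784.1, antisense to PSG11, PSG2 and PSG5, averaged 0.597 ± 0.428 TPM in EV-XP-NID1-LX-2 and 1.68 ± 0.314 TPM in EV-XP-LX-2 (log2 change −0.77). It passed the filter only through EV-XP-LX-2, so its call as lower is a description only. It was not called when replicate 1 or 3 of EV-XP-NID1-LX-2 or replicate 1 or 2 of EV-XP-LX-2 was left out. It averaged 0.0433 ± 0.00577 TPM in LV5-NID1 and 0.397 ± 0.0808 TPM in LV5, too low to be tested. The pseudogene CEACAMP10, which overlaps PSG9, averaged 0.807 TPM in EV-XP-NID1-LX-2 and 1.15 TPM in EV-XP-LX-2 and was not called. The pseudogene PSG10P was listed at 0 in all 3 EV-XP-NID1-LX-2 libraries and at 0.1, 0 and 0.06 TPM in EV-XP-LX-2, and at 0, 0.03 and 0.14 TPM in LV5-NID1 and 0.09, 0.08 and 0.21 TPM in LV5. PSG8-AS1, antisense to PSG8, stood at 0.18, 0.14 and 0.29 TPM in EV-XP-NID1-LX-2 and 0.27, 0.13 and 0.26 TPM in EV-XP-LX-2. It stood at 0.18, 0.14 and 0.07 TPM in LV5-NID1 and 0.17, 0.07 and 0.13 TPM in LV5. In both tables its groups overlapped, and it was too low to be tested.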
